A study of Arabidopsis thaliana with 4 samples.

Results

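The 10 genes described here encode regulators and enzymes of glucosinolate biosynthesis: MYB28 (AT5G61420), MYB29 (AT5G07690), MAM1 (AT5G23010), CYP79F1 (AT1G16410), CYP79F2 (AT1G16400), CYP83A1 (AT4G13770), CYP79B2 (AT4G39950), CYP79B3 (AT2G22330), CYP83B1 (AT4G31500) and SUR1 (AT2G20610). They were chosen by name for their place in the pathway, with earlier results of these data known. Of the 10, 9 were among the 28611 genes that could be matched in all libraries of the study. RNA immunoprecipitation with sequencing had been used to collect RNA held by CURLY LEAF (CLF), the histone methyltransferase of a Polycomb repressive complex, from Arabidopsis thaliana plants of the Columbia accession (Col-0) at 3 weeks of age. The CLF RIP group had 2 libraries from clf-28/Myc-CLF plants, in which a Myc-tagged CLF rescues the clf-28 mutant so that it looks like Col-0. The control RIP group had 2 libraries from wild type plants, for which no tagged CLF is named, and their RNA is described as random in the labels. Both groups were grown in 16 h of light and 8 h of dark, crosslinked, reduced to nuclear pellets and precipitated with an anti-Myc antibody. The promoter that drives Myc-CLF and the number of plants or transgenic lines behind a library are not given in the labels. The comparison asks whether RNA of these genes was recovered at another level with CLF than in the control RIP.

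Glucosinolates are sulfur-containing defence compounds of the cabbage order, which myrosinase enzymes break down into toxic products when tissue is damaged. Aliphatic glucosinolates are made mainly from methionine, whose side chain is first lengthened, and indolic ones from tryptophan. In both branches a CYP79 enzyme turns the amino acid into an oxime, a CYP83 enzyme activates the oxime, and a shared set of enzymes, SUR1 among them, builds the core that the compounds have in common.

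Values are FPKM (fragments per kilobase, scaled to library size), 1 per locus and library, which allow levels of different genes to be set side by side per length. The tables list a locus either under its gene identifier or under a serial number, and a serial-number locus was assigned to a gene when each covered at least 0.8 of the other. Of the 40 values needed, 10 stood under the gene's own identifier and 29 were found by overlap. The remaining 1 was that of CYP79F1 in control RIP replicate 1, where the longest locus covered 0.774 of the gene. The FPKM scale corresponded to about 4.27 M fragments in each CLF RIP library, against 10.0 M and 9.68 M in the control RIP libraries, so the same FPKM rests on fewer reads in the CLF RIP. The file names and the sample labels assign the groups in opposite ways. The labels were followed, and every direction below turns round if they are wrong. The labels do not state whether replicate libraries derive from different plants, and the p-values cover only how far these 4 libraries spread, possibly for technical reasons.

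The 10 genes covered a wide range of levels. MAM1 was the most abundant in both groups, at 94.8 ± 0.0681 FPKM in the CLF RIP and 85.2 ± 0.466 FPKM in the control RIP (SD, n = 2 each). At the other end CYP79F2 averaged 1.55 ± 1.00 FPKM in the CLF RIP and 1.27 ± 0.230 FPKM in the control RIP. In the CLF RIP the order by mean was MAM1, CYP83B1, CYP79F1, SUR1, MYB28, CYP79B2, CYP79B3, CYP83A1, MYB29 and CYP79F2. Neighbours in that order whose libraries overlapped were CYP79F1 with SUR1 and CYP79B3 with CYP83A1. The control RIP order differed in that SUR1 stood above CYP79F1 and CYP83A1 above CYP79B2 and CYP79B3. There the libraries of CYP83B1 and SUR1, of SUR1 and CYP79F1, and of CYP79B2 and CYP79B3 overlapped.

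**Figure D1:**
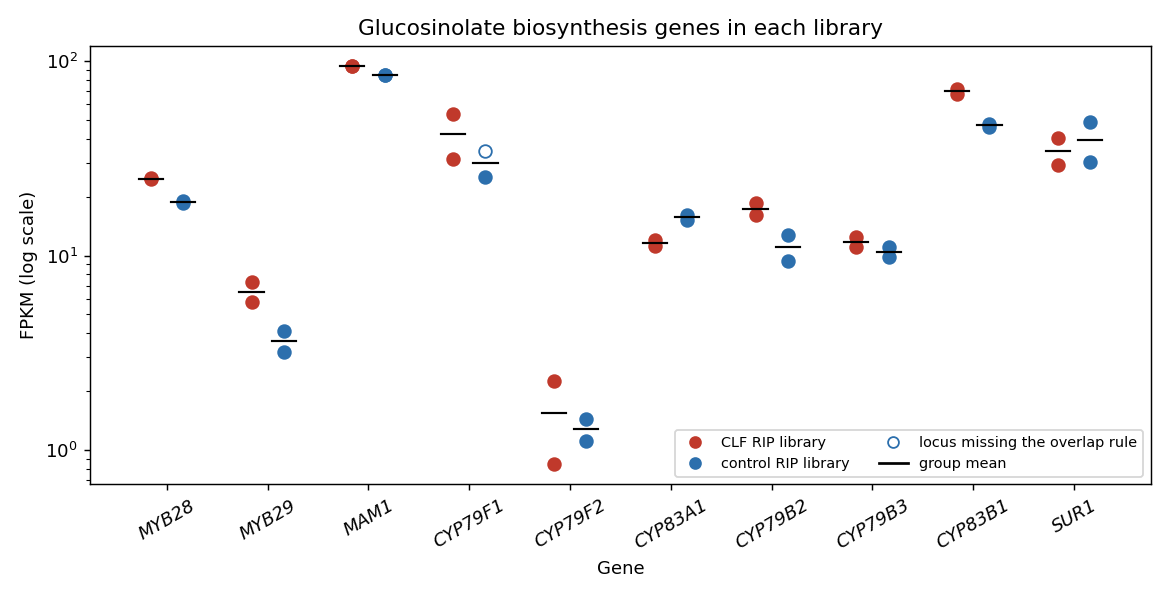
FPKM (log scale) of the 10 genes in each library, with CLF RIP libraries left of control RIP libraries, 1 point per library and a line at the group mean; the open point is the CYP79F1 locus that missed the overlap rule. MAM1 lies highest and CYP79F2 lowest in both groups, and CYP83A1 is the gene whose CLF RIP points both lie below its control RIP points.

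None of the 9 genes that could be tested passed the threshold. By limma with Benjamini-Hochberg adjustment over 14802 genes, 0 members of the set lay higher in the CLF RIP and 0 lay lower at an adjusted p under 0.05, where 0.750% of all genes tested were higher and 0.622% lower. At an unadjusted p under 0.05, 2 of the 9 were higher (MYB29 and CYP83B1) and 0 lower, against 17.0% and 7.76% of all genes. Both CLF RIP values lay above both control RIP values for 5 of the 9, MYB28, MYB29, MAM1, CYP79B2 and CYP83B1, where 40.5% of all genes did. Both lay below for 1 of the 9, CYP83A1, where 18.9% of all genes did. With so few genes, these counts do not set the glucosinolate genes apart from the background. The median log2 fold change of the 9 was 0.16, beside 0.25 over all genes tested. Fold changes were fitted on log2(FPKM + 1), which understates the change of low genes. All libraries were precipitates, without an input library. Recovery with CLF, recovery without it and a difference in nuclear RNA between the plants therefore cannot be told apart. In bulk plant material, fewer cells that express a gene and less of its RNA per cell cannot be told apart either.

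**Figure D2:**
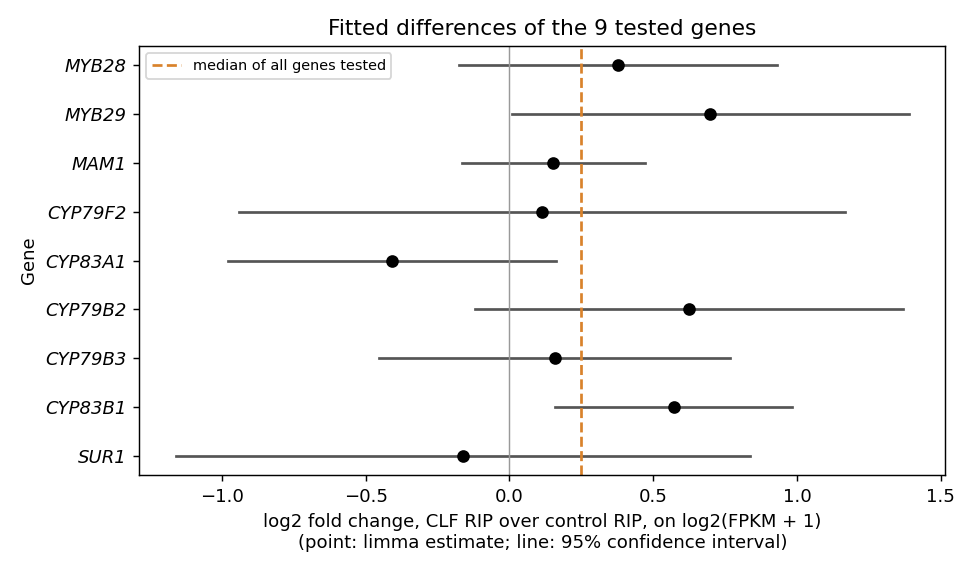
Log2 fold change of the 9 tested genes, CLF RIP over control RIP, on log2(FPKM + 1); points are limma estimates, lines are 95% confidence intervals, and the dashed line is the median of all genes tested, at 0.25. The interval lies wholly above 0 for MYB29 and CYP83B1, and no gene passed the adjusted threshold.

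MYB28 and MYB29 are MYB transcription factors that switch on the aliphatic branch. MYB28, on chromosome 5 from 24689151 to 24691095 in TAIR10, stood under its own identifier in all 4 libraries. Its values were 24.7 and 25.2 FPKM in the CLF RIP, against 19.2 and 18.7 FPKM in the control RIP. The groups did not overlap, and the libraries of each group lay close together, but the log2 fold change of 0.38 (SE 0.19, limma adjusted p 0.312) missed the threshold and was -0.037 without structural RNA genes. MYB29, on chromosome 5 from 2446764 to 2448543, was at 5.74 and 7.28 FPKM in the CLF RIP, against 3.17 and 4.09 FPKM in the control RIP. It had the largest positive log2 fold change of the 9 genes, 0.70 (SE 0.24, limma adjusted p 0.200), with a 95% confidence interval of 0.01 to 1.39, and it was 0.34 without structural RNA genes. At most about 43.6 and 55.3 fragments lay behind the CLF RIP values and 56.6 and 70.5 behind the control RIP values, taking the whole locus as transcript. MYB76, the neighbouring MYB gene of the aliphatic branch, was at 1.45 and 0 FPKM in the CLF RIP, against 0.493 and 0.127 FPKM in the control RIP, and was too low to be tested.

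MAM1 encodes the methylthioalkylmalate synthase that condenses the methionine-derived acid in side chain elongation. On chromosome 5, its locus ran from 7703092 to 7706896 in every library, and its values were 94.9 and 94.8 FPKM in the CLF RIP, against 85.6 and 84.9 FPKM in the control RIP. The difference was small and steady between libraries, with a log2 fold change of 0.15 (SE 0.11, limma adjusted p 0.445) and an interval of -0.17 to 0.47. Its direction did not hold under other scalings, where it was -0.064 by quantile normalization, -0.13 by median-of-ratios and -0.28 without structural RNA genes. Each library also listed a second, shorter locus inside MAM1 that was not used. It was at 41.7 and 37.8 FPKM over 809 and 811 bp in the CLF RIP, and at 13.1 and 11.0 FPKM over 2413 and 2217 bp in the control RIP, so the shorter loci were not the same stretch in the groups. MAM3, the neighbouring synthase gene that makes longer side chains, was at 12.5 and 6.37 FPKM in the CLF RIP, against 3.14 and 1.75 FPKM in the control RIP (log2 fold change 1.56, SE 0.43, limma adjusted p 0.164).

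CYP79F1 and CYP79F2 are neighbouring genes on chromosome 1 whose enzymes make oximes from elongated methionine. As close copies they may have exchanged reads, which makes each value uncertain. CYP79F1, with a RefSeq TAIR10.1 span from 5608682 to 5612064, was at 53.5 and 31.2 FPKM in the CLF RIP, against 34.5 and 25.4 FPKM in the control RIP. All 4 loci began at 5608807 but ended at 5611864 and 5611687 in the CLF RIP and at 5611426 and 5612081 in the control RIP, so the values cover different stretches and the groups overlapped. When an overlap of 0.7 was accepted, a rule added after the data were seen, its log2 fold change was 0.45 (limma adjusted p 0.481). CYP79F2, from 5605159 to 5607473, was at 2.26 and 0.844 FPKM in the CLF RIP, against 1.44 and 1.11 FPKM in the control RIP. The CLF RIP libraries enclosed both control RIP values, and at most about 22.3 and 8.34 fragments lay behind them, against 33.4 and 24.9 in the control RIP. Its log2 fold change was 0.11 (SE 0.36, limma adjusted p 0.862). Leaving out CLF RIP replicate 1 gave -0.30, and leaving out replicate 2 gave 0.52.

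CYP83A1, which activates the aliphatic oximes, was the tested gene with the lowest fold. On chromosome 4 from 7990485 to 7992311, it was at 11.2 and 12.001 FPKM in the CLF RIP, against 16.1 and 15.3 FPKM in the control RIP. The groups did not overlap, and the log2 fold change was -0.41 (SE 0.20, limma adjusted p 0.298) with an interval of -0.98 to 0.16. It was -0.72 by quantile normalization and -0.81 without structural RNA genes. Its control RIP loci began at 7990229 and so were 2083 bp long, against 1827 bp in the CLF RIP, and the part of this difference in span in the fold was not tested. Relative to the median of all genes, CYP83A1 lay between -0.74 and -0.66 under the 4 scalings.

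In the indolic branch, CYP79B2 and CYP79B3 turn tryptophan into indole-3-acetaldoxime, and CYP83B1 takes that oxime towards glucosinolates. CYP79B2, on chromosome 4 from 18525246 to 18527579, was at 16.2 and 18.6 FPKM in the CLF RIP, against 12.8 and 9.33 FPKM in the control RIP. Its groups did not overlap, and the log2 fold change was 0.62 (SE 0.26, limma adjusted p 0.248). It was 0.30 by quantile normalization, 0.36 by median-of-ratios and 0.22 without structural RNA genes. Control RIP replicate 2, the library with the lowest value, also listed an unused locus of 295 bp inside CYP79B2 at 22.5 FPKM. The part of this locus in that value was not tested. CYP79B3, on chromosome 2 from 9488413 to 9491404 in RefSeq TAIR10.1, was at 11.0 and 12.5 FPKM in the CLF RIP, against 11.1 and 9.77 FPKM in the control RIP.

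CYP79B3 values thus overlapped between groups, with a log2 fold change of 0.16 (SE 0.21, limma adjusted p 0.667) that was -0.15, -0.10 and -0.24 under the 3 other scalings. Shorter loci inside CYP79B3 that were not used stood at 34.4 and 39.4 FPKM in the CLF RIP, against 20.8 and 20.0 FPKM in control RIP replicate 1 and 14.5 FPKM in control RIP replicate 2. They covered 648 and 524 bp in the CLF RIP, and 559, 467 and 842 bp in the control RIP. All lay inside the gene, and how reads were divided between overlapping loci was not tested.

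CYP83B1, on chromosome 4 from 15273410 to 15275404 in RefSeq TAIR10.1, was at 71.9 and 68.3 FPKM in the CLF RIP, against 45.9 and 47.8 FPKM in the control RIP. The groups were well apart relative to their spread, at a ratio of means of 1.496. Its log2 fold change of 0.57 (SE 0.14, interval 0.16 to 0.98) had the smallest p of the 9 genes, 0.0191, and missed the threshold after adjustment over all genes (limma adjusted p 0.146). Without structural RNA genes it was 0.14. Its loci extended beyond the RefSeq gene to 15273085 and 15273082 in the CLF RIP and to 15273095 in control RIP replicate 2, but began inside it at 15273471 in control RIP replicate 1. A longer unused locus overlapped the edge of the gene in CLF RIP replicate 1 (24.7 FPKM) and control RIP replicate 2 (9.22 FPKM) only. The part of these locus differences in the fold was not tested.

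SUR1, the C-S lyase shared by both branches, differed more between libraries of a group than between groups. Its locus on chromosome 2 from 8877960 to 8880388 was at 40.2 and 29.2 FPKM in the CLF RIP, against 30.3 and 48.7 FPKM in the control RIP. The log2 fold change was -0.16 (SE 0.34, limma adjusted p 0.792). Leaving out CLF RIP replicate 2 gave 0.063, and leaving out control RIP replicate 2 gave 0.17. Unused loci were listed at the edge of SUR1 in CLF RIP replicate 2 (189 bp, 23.6 FPKM) and inside it in control RIP replicate 2 (396 bp, 28.5 FPKM). The part of these loci in the spread was not tested.

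Summed over CYP79B2, CYP79B3 and CYP83B1, the indolic enzymes stood at 99.1 and 99.4 FPKM in the CLF RIP, against 69.7 and 66.9 FPKM in the control RIP. The sum over MAM1, CYP79F1, CYP79F2 and CYP83A1 of the aliphatic branch was 162 and 139 FPKM in the CLF RIP. In the control RIP it was 138 and 127 FPKM. The 138 FPKM of control RIP replicate 1 includes 34.5 FPKM from the CYP79F1 locus that missed the overlap rule. Both sums are on the deposited scale, and without structural RNA genes the log2 fold change of CYP83B1 was 0.14 in place of 0.57. CYP83B1 makes up most of the first sum and MAM1 most of the second, and a difference between the branches was not tested. These groupings were made with the values known.

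Since scaling moved the median of all genes (0.25 as deposited, 0.02 by quantile normalization, 0.0086 by median-of-ratios and -0.12 without structural RNA genes), each gene was also read relative to that median. MYB28, MYB29, CYP79B2 and CYP83B1 lay above it under all 4 scalings. MAM1, CYP83A1, CYP79B3 and SUR1 lay below it under all 4, and CYP79F2 lay on either side. MYB29 was the farthest above, by 0.45 to 0.47.

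**Figure D3:**
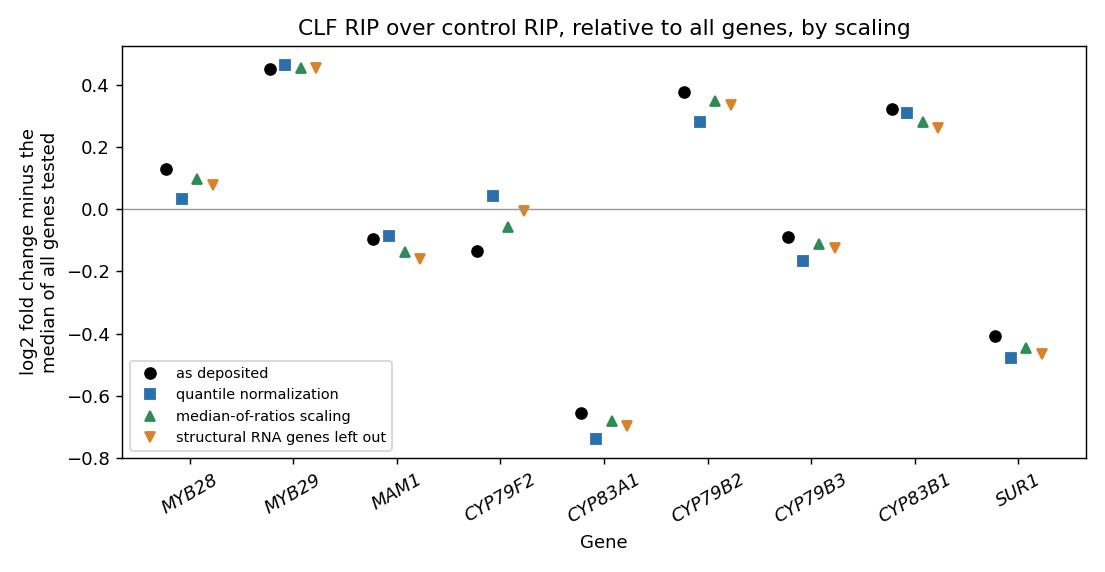
Log2 fold change minus the median of all genes tested, CLF RIP over control RIP, for the 9 tested genes under 4 scalings, with 1 point per scaling. MYB29 stays near 0.45 and CYP83A1 between -0.74 and -0.66, while CYP79F2 lies on both sides of 0.

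Ratios between related genes of the same library do not depend on a scaling factor per library, and 5 pairs, chosen with the values known, were computed. CYP83B1 over CYP83A1, the indolic over the aliphatic CYP83 enzyme, was 6.42 and 5.69 in the CLF RIP, against 2.84 and 3.13 in the control RIP. The groups of this ratio did not overlap, and their means differed by a factor of 2.03. That separation was fixed by the single genes, since CYP83B1 lay higher and CYP83A1 lower in both CLF RIP libraries. The loci of both genes differed in span between libraries, and the part of this in the ratio was not tested. MAM1 over MAM3 was 7.59 and 14.9 in the CLF RIP, against 27.2 and 48.6 in the control RIP, also without overlap. MYB28 over MYB29 was 4.29 and 3.46 in the CLF RIP, against 6.06 and 4.57 in the control RIP. CYP79B2 over CYP79B3 was 1.47 and 1.496 in the CLF RIP, against 1.16 and 0.954 in the control RIP. Neither of these ratios overlapped between groups. How often other pairs of genes separate the groups was not computed. Among single genes, 40.5% had both CLF RIP values above both control RIP values and 18.9% had both below. These shares are no background for the ratios, since a ratio combines a pair of genes. CYP79F1 over CYP79F2 was 23.7 and 37.0 in the CLF RIP, against 24.0 and 22.9 in the control RIP, and overlapped. With 2 libraries against 2, an exact two-sided permutation test cannot go below p = 0.333, so no ratio can be called different by it.

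**Figure D4:**
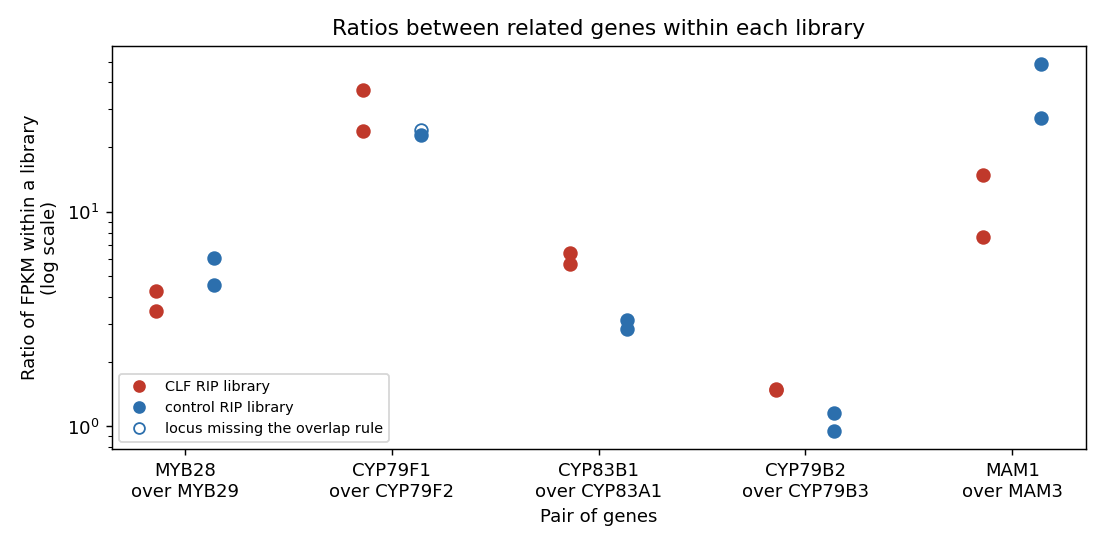
Ratio of FPKM between 2 related genes within each library (log scale), with CLF RIP libraries left of control RIP libraries and 1 point per library; the open point uses the CYP79F1 locus that missed the overlap rule. CYP83B1 over CYP83A1 is 6.42 and 5.69 in the CLF RIP, against 2.84 and 3.13 in the control RIP. This separation follows from the opposite directions of the 2 genes.

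The wider pathway was read from 56 further genes, of which 43 were matched in all libraries and 40 were tested. Again 0 were higher and 0 lower by limma after adjustment. At an unadjusted p under 0.05, 6 of the 40 were higher and 2 lower, where 17.0% and 7.76% of all genes were. The median log2 fold change of the 40 was 0.36, beside 0.25 over all genes tested. Among regulators, MYC3, a jasmonate-responsive partner of the MYB factors, was at 36.1 and 37.1 FPKM in the CLF RIP, against 23.0 and 22.8 FPKM in the control RIP (log2 fold change 0.65, limma adjusted p 0.159). IQD1, a calmodulin-binding protein, and SLIM1, a sulfur-response regulator, had log2 fold changes of 0.64 and 0.55. In chain elongation, BCAT4, the methionine aminotransferase that opens the branch, had 0.61 and the plastid transporter gene BAT5 0.38. The later aliphatic core genes lay on both sides of 0, with GSTU20 at -0.49, the glucosyltransferase gene UGT74C1 at -0.31 and the sulfotransferase gene SOT17 at 0.50. Of the indolic core, GSTF10 was at 0.49 and SOT16 at 0.07, and APK2, which supplies activated sulfate, was at 0.43. Without structural RNA genes, GSTF10 was at 0.066 and APK2 at 0.0048, and MYC3, BCAT4 and TSB1 were at 0.23, 0.20 and 0.16. TSB1 of tryptophan synthesis was at 0.59, ASA1 at 0.10 and the camalexin gene PAD3 at 0.33, the last at 0.013 when CLF RIP replicate 1 was left out.

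The largest fold in the wider pathway was that of CYP81F4, which hydroxylates indolic glucosinolates. It was at 10.3 and 14.4 FPKM in the CLF RIP, against 1.62 and 1.14 FPKM in the control RIP, over the same locus in all libraries. The log2 fold change was 2.48 (SE 0.27) and narrowly missed the threshold (limma adjusted p 0.0683, and 0.0574 to 0.399 over the alternatives). IGMT1 and IGMT2, methyltransferase genes also listed under side chain modification, lay lower in the CLF RIP without passing the threshold. IGMT1 was at 5.06 and 6.19 FPKM in the CLF RIP, against 11.8 and 9.63 FPKM in the control RIP (log2 fold change -0.82, limma adjusted p 0.166). IGMT2 was at 1.83 and 0.817 FPKM in the CLF RIP, against 6.22 and 4.75 FPKM in the control RIP (log2 fold change -1.505, limma adjusted p 0.128). IGMT1 and IGMT2 are close copies, so reads may be split between them.

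Both glucosinolate transporter genes lay higher in the CLF RIP without passing the threshold. GTR1 was at 50.2 and 50.3 FPKM in the CLF RIP, against 27.4 and 25.1 FPKM in the control RIP (log2 fold change 0.91, limma adjusted p 0.111). GTR2 was at 16.7 and 18.1 FPKM in the CLF RIP, against 9.51 and 9.31 FPKM in the control RIP (log2 fold change 0.82, limma adjusted p 0.140). Relative to the median of all genes, GTR1 lay 0.60 to 0.67 and GTR2 0.49 to 0.57 above it under the 4 scalings. The myrosinase genes TGG1 and TGG2, whose enzymes break glucosinolates down, had log2 fold changes of 0.22 and 0.21, both below the median of all genes. NSP1, which diverts the breakdown to nitriles, was at 24.7 and 63.1 FPKM in the CLF RIP, against 15.2 and 29.6 FPKM in the control RIP (log2 fold change 0.87, limma adjusted p 0.446). Leaving out CLF RIP replicate 1 gave 1.53 and leaving out CLF RIP replicate 2 gave 0.21, while leaving out control RIP replicate 1 gave 0.41 and control RIP replicate 2 gave 1.32.

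**Figure D5:**
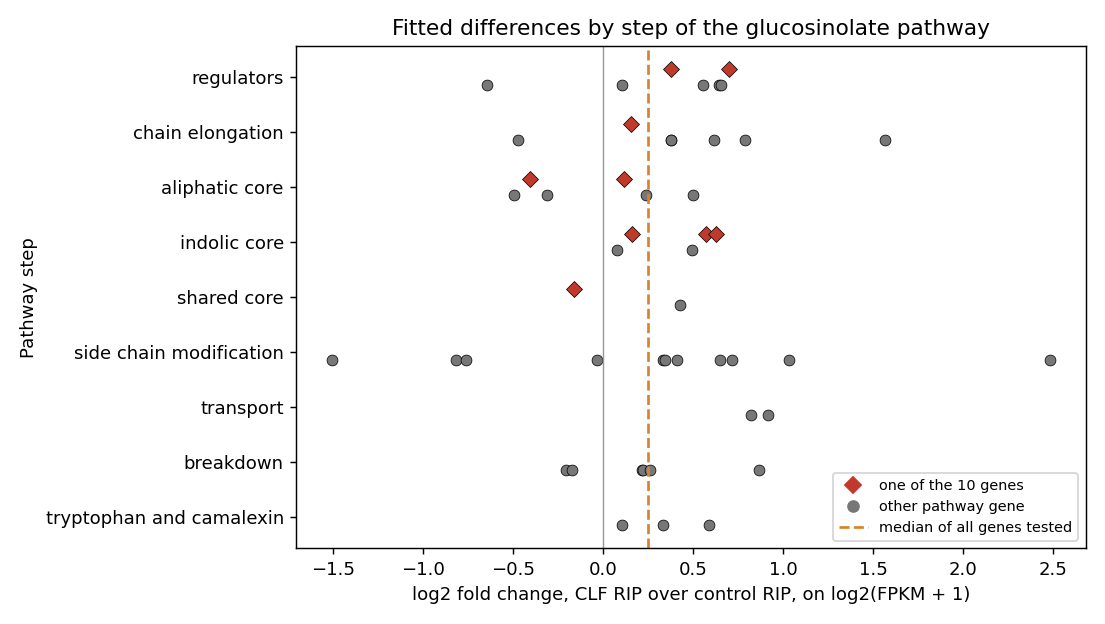
Log2 fold change, CLF RIP over control RIP, on log2(FPKM + 1) of the tested glucosinolate genes by pathway step; diamonds are the 9 tested genes of the set, circles the 40 further pathway genes, and the dashed line is the median of all genes tested. CYP81F4 lies farthest to the right and IGMT2 farthest to the left, both among side chain modification genes.

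Over all 14802 genes tested, 111 passed the threshold as higher and 92 as lower in the CLF RIP. Higher genes made up 54.7% of these calls, and 45.0% under quantile normalization, 41.2% under median-of-ratios scaling and 35.4% without structural RNA genes. Limma called 0 higher and 0 to 2 lower genes when any 1 library was left out. All 3 leaf photosynthesis genes used as markers were lower in the CLF RIP (limma adjusted p 0.0155 to 0.0383), and no other tested tissue marker passed the threshold. The summed level of the leaf genes was 896 and 892 FPKM in the CLF RIP, against 2455 and 2437 FPKM in the control RIP. That of 3 floral genes was 3.16 and 3.49 FPKM in the CLF RIP, against 25.9 and 31.5 FPKM in the control RIP. By gene, the log2 fold change was -2.75 for AG, -2.48 for SEP3 and -0.65 for AP3, each short of the limma threshold. Whether the floral difference reflects flower tissue or the regulation of these genes in the plants was not tested. Its direction, too, turns round if the labels are wrong. Phloem markers (2 genes) stood at 47.4 and 34.8 FPKM in the CLF RIP, against 22.3 and 26.4 FPKM in the control RIP, and 3 markers of myrosin and guard cells at 69.2 and 81.3 FPKM, against 59.6 and 54.1 FPKM. Sums of 4 root markers were 3.78 and 4.56 FPKM in the CLF RIP, against 3.76 and 3.44 FPKM in the control RIP, with CASP1 listed at 0 in all libraries. Sums of 3 seed markers were 0.483 and 0.336 FPKM in the CLF RIP, against 0.139 and 0 FPKM in the control RIP. The part of these markers in the values of the glucosinolate genes was not tested.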

How the data were processed

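FPKM values for each locus were deposited by the authors, 1 table a library. The tools listed in the submitters' processing notes are TopHat2 2.0.10 and Trimmomatic, and the build is TAIR10. What defined the loci and computed FPKM is not stated there. Depth was estimated from the level at which FPKM times length of low loci piles up, read as 1 fragment. Gene spans came from the tables or, where no library used the identifier, from RefSeq TAIR10.1. Loci with serial numbers needed a span of at least 300 bp, a reciprocal overlap of at least 0.8 and a value below that of 1 read on a 75 bp locus, with 1 gene per locus. Genes reaching 1 FPKM in 2 or more libraries entered the model, limma 3.58.1 under R 4.3.3 with trend and robust prior on log2(FPKM + 1), without a replicate block, at a Benjamini-Hochberg adjusted p of 0.05. The fit was run on values simulated from its own variances, which checks the code and not how it performs on these libraries. Alternatives changed filter, pseudocount, scaling, prior, block, overlap and libraries. Each of the 10 genes, MAM3, MYB76 and the up to 3 wider genes per list with the smallest p were named. Members and lists were chosen with earlier results of these data known. Python 3.11.15, pandas 2.3.3, numpy 2.4.6 and matplotlib 3.10.9 were used. Sequences are not shown.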

Additional observations from a re-analysis of the deposited data

How the results depend on the processing

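No gene of the set passed the limma threshold under any of 15 alternatives in which it could be tested. Of these, 14 were planned and the overlap of 0.7 was chosen after seeing the data. CYP79F2 was not tested with the filter at 5 FPKM (8 genes left), CYP83A1, CYP79B3 and CYP83B1 were not at an overlap of 0.9 (6 genes left), and CYP79F1 was added at 0.7 (10 genes). None of the 23 wider genes named passed where tested. The median of the 9 genes, 0.16, was 0.053 by quantile normalization, -0.048 by median-of-ratios scaling, -0.12 without structural RNA genes and 0.17 to 0.36 without 1 library. Over the other gene sets it was 0.27 for the 8 genes at 5 FPKM, 0.27 for the 10 at an overlap of 0.7 and 0.26 for the 6 at 0.9. Counts over all genes, 111 higher and 92 lower, were 70 and 206 without a filter, 42 and 45 at a pseudocount of 5, 40 and 27 without the trend and robust prior, 64 and 117 without structural RNA genes, and 0 and 0 with the replicate block, where 2713 had an unadjusted p under 0.05. They were 0 higher and 0 to 2 lower without 1 library, where 1817 to 3723 had an unadjusted p under 0.05. A lone library was then assumed to vary like the other group. Replicate numbers were not taken to pair the libraries, since the labels do not say what these numbers mark. Same-numbered libraries deviated from their group means with a correlation of 0.02 over genes, which cannot show whether they were paired.

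Directions turned under quantile normalization for MAM1 (-0.064), CYP79B3 (-0.15), SOT16 (-0.25), TGG1 (-0.052), TGG2 (-0.11) and ASA1 (-0.13). They turned under median-of-ratios scaling for MAM1 (-0.13), CYP79F2 (-0.048), CYP79B3 (-0.10), SOT16 (-0.20), TGG1 (-0.059), TGG2 (-0.057) and ASA1 (-0.17). Without structural RNA genes they turned for MYB28 (-0.037), MAM1 (-0.28), CYP79F2 (-0.12), CYP79B3 (-0.24), BAT5 (-0.036), SOT16 (-0.34), TGG1 (-0.20), TGG2 (-0.20), PAD3 (-0.052) and ASA1 (-0.32). Over the fits without 1 library CYP79F2 ran from -0.30 to 0.52, SUR1 from -0.50 to 0.17, ASA1 from -0.0070 to 0.22 and SOT16 from -0.036 to 0.19. The cause of these turns was not tested. The lower depth of the CLF RIP limits the low genes MYB29 and CYP79F2 most.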

Other observations

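The following genes were chosen after their values were seen. AT1G16420, next to CYP79F1 on chromosome 1, was at 0.829 and 0.832 FPKM in the CLF RIP, against 10.5 and 10.12 FPKM in the control RIP, while CYP79F1 itself overlapped between groups. Its log2 fold change was -2.63 (SE 0.18, limma adjusted p 0.0383), and at most 2 of all genes passed this threshold when any 1 library was left out. MYB51, a regulator of the indolic branch, was at 24.6 and 23.2 FPKM in the CLF RIP, against 31.4 and 45.7 FPKM in the control RIP (log2 fold change -0.65, limma adjusted p 0.246), opposite in sign to CYP79B2 and CYP83B1. CYP81F2, another CYP81F gene of the wider list, was at 10.8 and 34.4 FPKM in the CLF RIP, against 37.7 and 30.1 FPKM in the control RIP. Thus 1 CLF RIP library lay below the control RIP range and the other inside it. FMOGS-OX2, a flavin monooxygenase gene of side chain oxidation, ranged from 25.7 to 203 FPKM within the CLF RIP and from 46.3 to 119 FPKM within the control RIP over the same locus.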
